A study of Saccharomyces cerevisiae with 4 samples.

Results

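The 42 genes described here carry sugar into budding yeast cells and convert it to pyruvate, ethanol, acetate or glycerol, or build glucose back from smaller molecules. They were listed by name as 7 hexose transporters (HXT1 to HXT7) and 35 enzymes, and all 42 were found in the R64 annotation among 6002 nuclear protein-coding genes. The question was where peaks of Swc4 fall at these genes, in the promoter or in the gene itself, and whether this differs in cells without YAF9. Swc4 and Yaf9 are shared subunits of the SWR1 complex, which places the histone variant H2A.Z, and of the NuA4 acetyltransferase. Swc4 was mapped by chromatin immunoprecipitation and sequencing (ChIP-seq) with a myc antibody.

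The 4 libraries fall into 2 genotypes of 2 libraries each, yaf9d and wild_type. The titles of the yaf9d samples name a YAF9 deletion, and their genotype entry gives the tag alone. Both genotypes are haploid cells of the BY background with Swc4 carrying 13 copies of the myc tag, grown without treatment in YPD, a rich medium with glucose, to mid-log phase. Nothing in the labels ties the replicate libraries to separate cultures, so p-values measure a spread that may be technical.

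Glycolysis splits a hexose into pyruvate in a chain of reactions that yields ATP. On glucose, yeast ferments most of the pyruvate: pyruvate decarboxylase turns it into acetaldehyde and alcohol dehydrogenase turns that into ethanol. Transcripts of the glycolytic enzymes are among the most abundant in fermenting cells, whereas genes for gluconeogenesis and for use of ethanol and acetate are repressed by glucose. Several steps have paralogues, of which one serves growth on glucose and another growth on other carbon sources.

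The nuclear peaks numbered 616 and 1139 in yaf9d replicates 1 and 2, and 884 and 704 in wild_type replicates 1 and 2. Each peak carries the authors' fold enrichment at its summit over a local background. The lists give no read totals, but the fold and p-value together return the summit pileup and the background on the caller's scale. The recovered backgrounds had medians of 46.6 and 71.3 in yaf9d and 64.9 and 56.4 in wild_type, over all nuclear peaks. A summit was assigned to a promoter when it lay in the 500 bp upstream of a coding start, and to the gene body when it lay inside the gene. A gene with no summit is one without a call, which does not show that Swc4 was absent.

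Counting peaks of any fold and background, gene-body summits were more frequent at these genes than at all genes. At the listed genes, 39 of the 41 gene-body peaks had a fold below 2, and shares at higher folds were not compared with all genes. On a recovered background of 200 or more stood 2 of 4 and 8 of 17 of these peaks in yaf9d. In wild_type it was 8 of 12 and 7 of 8. Among all gene-body peaks it was 5.07% and 9.13% in yaf9d and 10.3% and 10.4% in wild_type. Shares of genes without such peaks were not counted, so an excess apart from them is not shown. Of the 42 genes, 4 and 15 had a gene-body summit in yaf9d replicates 1 and 2, and 12 and 7 in wild_type replicates 1 and 2. That is 9.52% and 35.7% in yaf9d and 28.6% and 16.7% in wild_type. The share among all 6002 genes was 3.57% and 12.1% in yaf9d and 10.5% and 6.88% in wild_type, so the listed genes lay above it in each of the 4 libraries. Their coding lengths were somewhat greater, with a median of 1503 bp against 1200 bp over all genes. Per 100 kb of coding length, the listed genes held 6.02 and 25.6 summits in yaf9d and 18.1 and 12.0 in wild_type. All genes held 2.48 and 8.87 in yaf9d and 7.25 and 4.76 in wild_type. Per 100 kb of the 500 bp promoters, the listed genes held 19.0 and 14.3 summits in yaf9d and 9.52 and 19.0 in wild_type. Promoters of all genes held 11.4 and 12.3 in yaf9d and 11.8 and 9.70 in wild_type, denser than all gene bodies in each library. Per length, summits inside the listed genes were thus denser than in their promoters in yaf9d replicate 2 and wild_type replicate 1, and less dense in the other 2 libraries.

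Promoter summits were few. They were present at 4 and 3 of the 42 genes in yaf9d and at 2 and 4 in wild_type. In percent this is 9.52% and 7.14% in yaf9d and 4.76% and 9.52% in wild_type. The background was 5.68% and 6.13% of all genes in yaf9d and 5.86% and 4.85% in wild_type. These shares rest on 2 to 4 genes, and they lay above that of all genes in 3 libraries and below it in wild_type replicate 1.

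**Figure D1:**
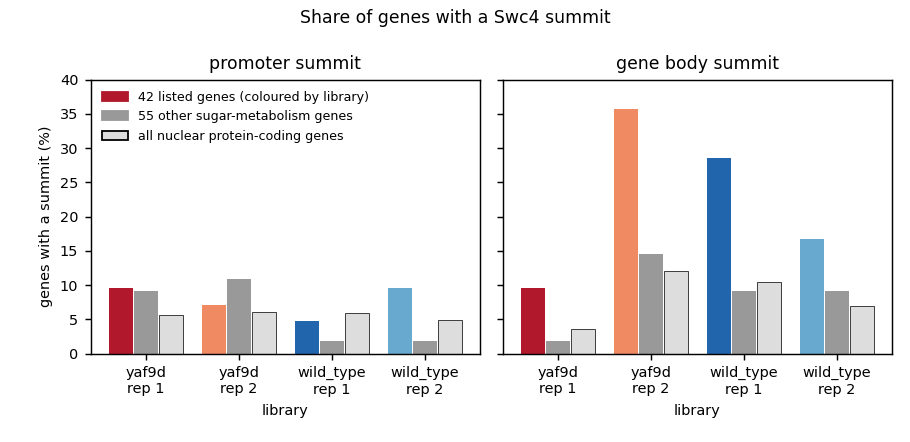
Percent of genes with a promoter summit (left) or a gene-body summit (right), 1 bar per library for the 42 listed genes, the 55 other sugar-metabolism genes and all 6002 nuclear protein-coding genes. In the gene-body panel the bar of the listed genes (9.52% to 35.7%) is above both others in each library, and in the promoter panel the order of the bars changes between libraries.

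The genotypes did not differ in these counts beyond the spread between replicates. Promoter summits were present at 3.5 ± 0.71 genes in yaf9d and 3 ± 1.41 in wild_type (SD, n = 2 each; exact permutation p = 1). Gene-body summits were present at 9.5 ± 7.78 genes in yaf9d and 9.5 ± 3.54 in wild_type (SD, n = 2 each; exact permutation p = 1). Either kind was present at 12.5 ± 6.36 genes in yaf9d and 12 ± 1.41 in wild_type (SD, n = 2 each; exact permutation p = 1). The tests were two-sided, and the smallest p that 2 against 2 libraries allow is 0.333. The share of all genes with either kind was 9.08% and 17.0% in yaf9d and 15.7% and 11.4% in wild_type. The difference in listed genes with either kind was 0.5 as given, 5 without yaf9d replicate 1, -4 without yaf9d replicate 2, 1.5 without wild_type replicate 1 and -0.5 without wild_type replicate 2. For gene-body summits it was 0 as given, 5.5 without yaf9d replicate 1, -5.5 without yaf9d replicate 2, 2.5 without wild_type replicate 1 and -2.5 without wild_type replicate 2, so no direction is given.

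Over all libraries, 27 of the 42 genes had a summit in the promoter or the gene body in at least 1 library, 64.3% against 28.8% of all genes. The other 15 had none. They were HXT1, HXT2, HXT4, HXT5, HXT6 and HXT7, PGI1, PFK1, PFK2, TDH1, PYK2, PDC5, ACS1, PCK1 and FBP1. A promoter summit was present at 8 genes in at least 1 library (11.3% of all genes), and 5 of the 8 were called in 1 library alone. A gene-body summit was present at 22 genes in at least 1 library (21.1% of all genes).

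**Figure D2:**
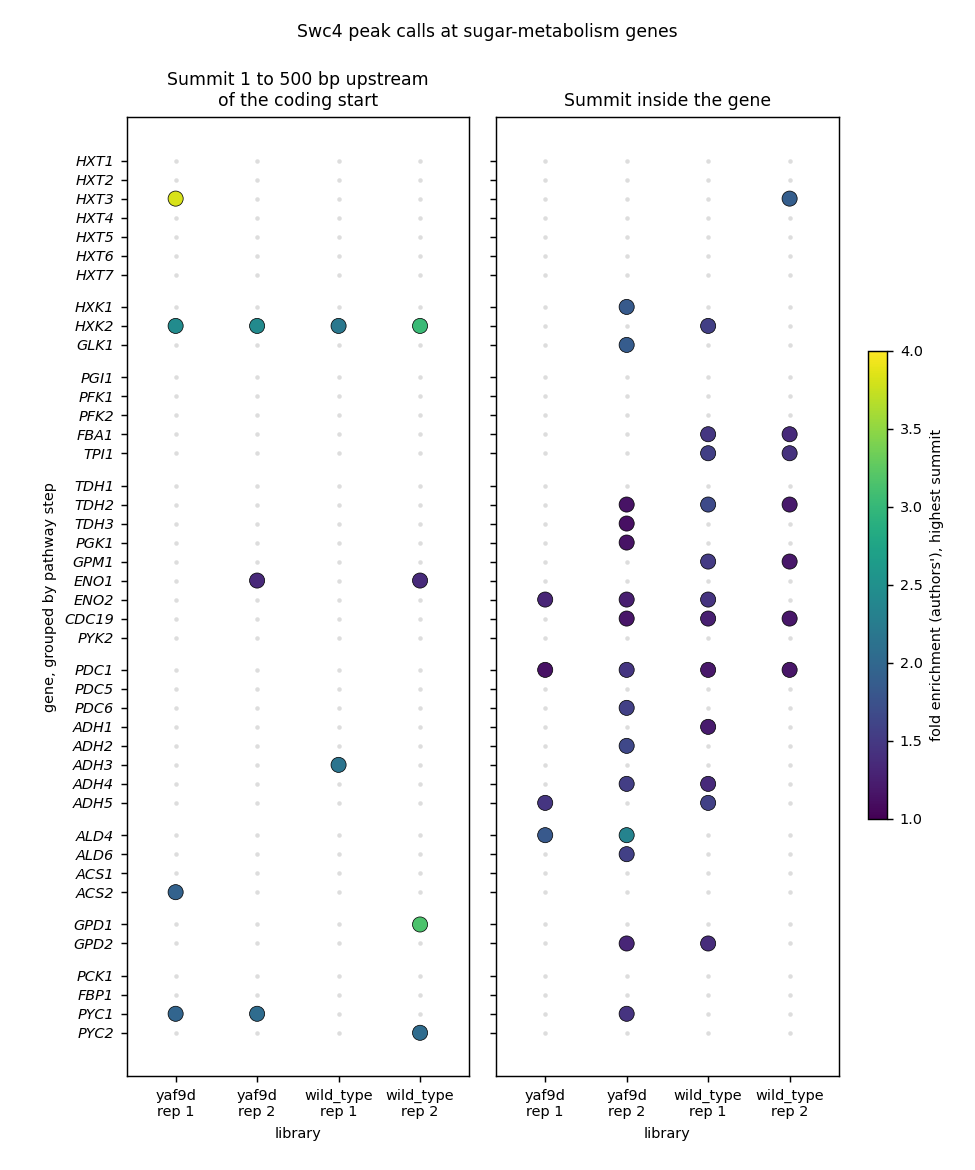
Swc4 calls at the 42 genes (rows, by pathway step) in the 4 libraries (columns), with summits in the promoter at left and in the gene at right; a large point is a call, coloured by the authors' fold enrichment, and a small grey point is no call. HXK2 fills the promoter row in all 4 libraries, PDC1 fills the gene-body row, and calls inside glycolytic genes have low folds.

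Hexose transporters are the membrane proteins that let glucose into the cell. Of 7, 1 and 0 had a summit in the promoter or the gene in yaf9d and 0 and 1 in wild_type, against 9.08% and 17.0% of all genes in yaf9d and 15.7% and 11.4% in wild_type. The gene called was HXT3, a low-affinity transporter used at high glucose. In yaf9d replicate 1 it had a promoter summit 419 bp upstream of the coding start (chromosome IV, 1164918 to 1165252) with a fold of 3.82, the highest of the 13 promoter peaks at the listed genes. In wild_type replicate 2 it had a summit 120 bp inside the gene with a fold of 1.89, in an 801 bp peak that overlaps the same promoter. Neither of the other libraries had a call there. HXT6 and HXT7 are near-identical copies, and how reads shared between copies were placed is not given in the sources used here. The same limit holds for the TDH, ENO, PDC1 and PDC5, and ADH1 and ADH2 copies below.

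HXK2, the main hexokinase on glucose and a regulator of glucose repression, was the one listed gene with a promoter summit in all 4 libraries, 1 of 42 against 1.88% of all genes. The summits lay 469 and 472 bp upstream of the coding start in yaf9d and 468 and 476 bp upstream in wild_type, a span of a few bases. Folds were 2.44 and 2.42 in yaf9d and 2.20 and 3.04 in wild_type. With 0% as the strongest peak of a list, they stood at 51.5% and 25.7% of the yaf9d lists and 27.4% and 17.1% of the wild_type lists. The peaks differed in width, with 298 and 868 bp in yaf9d and 721 and 1335 bp in wild_type; the widest ran on chromosome VII from 22963 to 24297. The nearest other gene was FZF1, a transcription factor gene on the same strand, whose end lay 256 to 264 bp from the summits. Wild_type replicate 1 had a further summit near the end of HXK2, 1312 bp into the gene, with a fold of 1.55.

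The paralogues of HXK2 had no promoter summit. HXK1, the hexokinase expressed on other carbon sources, had a gene-body summit in yaf9d replicate 2 alone, 1299 bp into a gene of 1458 bp, with a fold of 1.84. GLK1, glucokinase, had one in the same library, 577 bp into the gene, with a fold of 1.86 in a peak 1640 bp wide, the widest peak over a listed gene body.

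In upper glycolysis, FBA1 and TPI1 had a gene-body summit in both wild_type libraries and not in yaf9d. FBA1 is the aldolase that splits fructose bisphosphate, and TPI1 interconverts the triose phosphates that result. At FBA1 the folds were 1.47 and 1.35 in wild_type, with summits 206 and 235 bp into the gene. At TPI1 they were 1.56 and 1.43 in wild_type, with summits 238 and 268 bp into the gene. GPM1, the phosphoglycerate mutase of lower glycolysis, showed the same pattern with wild_type folds of 1.52 and 1.19, but its summits lay 172 and 580 bp into the gene. These 3 genes are 7.14% of the list, against 1.73% of all genes with this pattern. The other enzymes of this stage, PGI1 (phosphoglucose isomerase) and PFK1 and PFK2 (the phosphofructokinase subunits), had no summit in the promoter or the gene.

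Lower glycolysis, the stage that yields ATP, held gene-body summits at 6 of 9 genes, counting all libraries. Of all genes, 21.1% had one in at least 1 library. In each library, they were present at 1 and 5 of the 9 in yaf9d (3.57% and 12.1% of all genes) and at 4 and 3 in wild_type (10.5% and 6.88% of all genes). CDC19, the pyruvate kinase used on glucose, was called in yaf9d replicate 2 with a fold of 1.17 and in the wild_type libraries with 1.27 and 1.18. These summits lay 570 bp into the gene in yaf9d replicate 2 and 501 and 482 bp in wild_type, and wild_type replicate 2 had another at 1160 bp. PYK2, the pyruvate kinase used when glycolytic flux is low, had none. A peak of 2965 bp in yaf9d replicate 1 reached its promoter, with the summit 2729 bp upstream and 409 bp from PUT4.

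TDH1, TDH2 and TDH3 encode isozymes of glyceraldehyde-3-phosphate dehydrogenase. TDH2 was called inside the gene in yaf9d replicate 2 with a fold of 1.15, and in wild_type with 1.67 and 1.21. Its summits lay 627 bp into the gene in yaf9d replicate 2 and 259 and 649 bp in wild_type. TDH3, the most expressed isozyme in growing cells, was called in yaf9d replicate 2 alone with a fold of 1.13. PGK1, phosphoglycerate kinase, was also called there alone, with summits 533 and 888 bp into the gene and folds of 1.14 and 1.12. The last of these was the lowest fold of its whole list. TDH1 had no gene-body summit in the 4 libraries.

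The enolase paralogues differed in the place of their summits. ENO2, the enolase induced by glucose, was called in the gene in yaf9d with folds of 1.32 and 1.25, and in wild_type replicate 1 with 1.45. The yaf9d summits lay 1012 and 1025 bp into the gene, near its end, and the wild_type summit 128 bp into it. ENO1, which is not glucose-induced, was called in the promoter, in yaf9d replicate 2 with a fold of 1.35 and in wild_type replicate 2 with 1.36. Those summits lay 388 bp upstream in yaf9d replicate 2 and 245 bp in wild_type replicate 2, and both peaks had a −log10 q of 1.40, close to the lowest in any list (1.31). Yaf9d replicate 1 had a peak that overlaps both (chromosome VII, 1000137 to 1000421), with a fold of 1.54 and its summit 541 bp upstream, but it ends short of the 500 bp promoter.

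PDC1, the main pyruvate decarboxylase, was the one listed gene with a gene-body summit in all 4 libraries, 1 of 42 against 0.833% of all genes. Its summits fell at 1085 and 1066 bp into the gene in yaf9d and at 1040 and 1070 bp in wild_type, out of 1692 bp. Folds were 1.14 and 1.46 in yaf9d and 1.20 and 1.17 in wild_type. The peak of yaf9d replicate 2 (chromosome XII, 232435 to 234032) was 1598 bp wide, against 558 bp in yaf9d replicate 1 and 868 and 653 bp in wild_type. PDC5, which is expressed when PDC1 is lost, had no summit, and PDC6, a minor isozyme, had one in yaf9d replicate 2 with a fold of 1.56.

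Alcohol dehydrogenase genes were called in 1 or 2 libraries each. ADH1, which makes ethanol during fermentation, was called in the gene in wild_type replicate 1 alone with a fold of 1.21. ADH2, the glucose-repressed isozyme that consumes ethanol, had a summit in the gene in yaf9d replicate 2 alone with a fold of 1.65. Peaks of both wild_type libraries with summits past the gene end, given below, overlap that peak. ADH4 was called in the gene in yaf9d replicate 2 and wild_type replicate 1 with folds of 1.55 and 1.36. ADH5 was called in yaf9d replicate 1 and wild_type replicate 1 with 1.46 and 1.59. ADH3, the mitochondrial isozyme, was called in the promoter in wild_type replicate 1 alone, 330 bp upstream, with a fold of 2.15.

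ALD4, the mitochondrial acetaldehyde dehydrogenase, had a gene-body summit in both yaf9d libraries and not in wild_type, 1 of 42 against 0.75% of all genes. Yaf9d replicate 1 had a fold of 1.82 with the summit 719 bp into the gene. Yaf9d replicate 2 had 2 peaks there, with summits at 256 and 1453 bp and folds of 2.19 and 2.34. The ALD4 peaks of yaf9d replicate 2 were the only 2 of the 41 gene-body peaks at the listed genes with a fold of 2 or more. ALD6, the cytosolic isozyme, had a gene-body summit in yaf9d replicate 2 with a fold of 1.56. ACS2, the acetyl-CoA synthetase used on glucose, had a promoter summit in yaf9d replicate 1 with a fold of 1.93, which lay within the neighbouring gene RNH203. Peaks over the same promoter in yaf9d replicate 2 and wild_type replicate 1 had folds of 1.95 and 2.49, with summits just past the limit at 580 and 579 bp. ACS1, its glucose-repressed paralogue, had none.

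PYC1, one of the pyruvate carboxylases that refill oxaloacetate, was the one listed gene with a promoter summit in both yaf9d libraries and not in wild_type, 1 of 42 against 1.18% of all genes. The folds were 1.96 and 2.05 in yaf9d, with summits 359 and 380 bp upstream. Wild_type replicate 1 had a peak that overlaps both, with a fold of 1.46, but its summit lay 742 bp upstream, inside PUS2. Yaf9d replicate 2 also had a summit 471 bp into PYC1, with a fold of 1.45. PYC2 had a promoter summit in wild_type replicate 2 alone, with a fold of 2.05, inside the neighbouring gene YBR219C. The reverse pattern, a promoter summit in both wild_type libraries and not in yaf9d, held for 0 of the 42 genes and 0.85% of all genes. The gluconeogenic genes PCK1 and FBP1 had no summit within 500 bp.

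The glycerol genes GPD1 and GPD2, for glycerol-3-phosphate dehydrogenase, had strong peaks upstream, mostly beyond the 500 bp limit. At GPD2 the summit lay 629 and 631 bp upstream in yaf9d and 631 and 618 bp in wild_type, in an interval between genes. Folds there were 4.29 and 4.61 in yaf9d and 2.56 and 3.42 in wild_type. They ranked 124 of 616 and 73 of 1139 in the yaf9d lists and 156 of 884 and 84 of 704 in the wild_type lists. In each library this was the highest fold of any summit in a listed gene or within 1000 bp upstream of one. The yaf9d folds were the higher ones, but each belongs to its own list, and they were not tested. At GPD1, wild_type replicate 2 had a summit 350 bp upstream with a fold of 3.15. The other 3 libraries had 1 wide peak each, with summits 1361 and 1386 bp upstream in yaf9d and 1356 bp in wild_type replicate 1. Those summits lay on the tRNA gene YNCD0004W or within 18 bp of it, and the peaks ran on to the GPD1 promoter. Inside GPD2, yaf9d replicate 2 and wild_type replicate 1 had summits with folds of 1.32 and 1.38.

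The length of the promoter window mattered, since the 13 promoter summits lay 245 to 476 bp upstream. Just inside the limit were HXK2 (468 to 476 bp) and ACS2 (449 bp in yaf9d replicate 1). Just outside were ALD6 in yaf9d (510 and 575 bp) and ALD4 in yaf9d replicate 2 (515 bp, inside NUD1). So was FBP1 (536 and 519 bp in yaf9d, 531 bp in wild_type replicate 2). In wild_type replicate 2 the ALD6 summit lay farther out, at 689 bp. TDH1 was also just outside, at 550 and 561 bp in yaf9d and 549 bp in wild_type replicate 1, as were the ACS2 and ENO1 summits given above. The FBP1 summits lay 48 to 65 bp from the tRNA gene YNCL0047W, and those of ALD6 lay inside YPL062W. In the stretch from 501 to 1000 bp upstream, 7 and 11 genes had a summit in yaf9d and 5 and 4 in wild_type. The share of all genes there was 5.85% and 8.85% in yaf9d and 7.45% and 6.36% in wild_type. Each yaf9d library exceeded each wild_type library for the listed genes, and yaf9d replicate 1 was below both wild_type libraries for all genes. PFK2, at 716 and 724 bp, and PCK1, at 607 and 620 bp, had a summit there in both yaf9d libraries and not in wild_type (0.966% of all genes).

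With a promoter of 1000 bp, 11 and 14 of the 42 genes had a promoter summit in yaf9d and 7 and 8 in wild_type. The share of all genes was 11.5% and 14.9% in yaf9d and 13.3% and 11.2% in wild_type. The groups did not overlap, and the difference of the means was 5 genes (exact permutation p = 0.333, two-sided and at its minimum for n = 2 each). At 500 bp the difference was 0.5 genes and at 300 bp it was -0.5, so this difference depends on the window. Counting any peak that overlaps the 500 bp promoter gave 12 and 13 genes in yaf9d and 10 and 9 in wild_type, a difference of 3 (exact permutation p = 0.333, again at its minimum). The share of all genes was not counted under this overlap rule, so whether the difference is particular to the listed genes is unknown. HXT1, HXT2, HXT4 to HXT7, PFK1, PYK2, PDC5 and ACS1, 10 of the 42 (23.8%), had no summit in the gene or in 1000 bp upstream, against 61.9% of all genes.

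**Figure D3:**
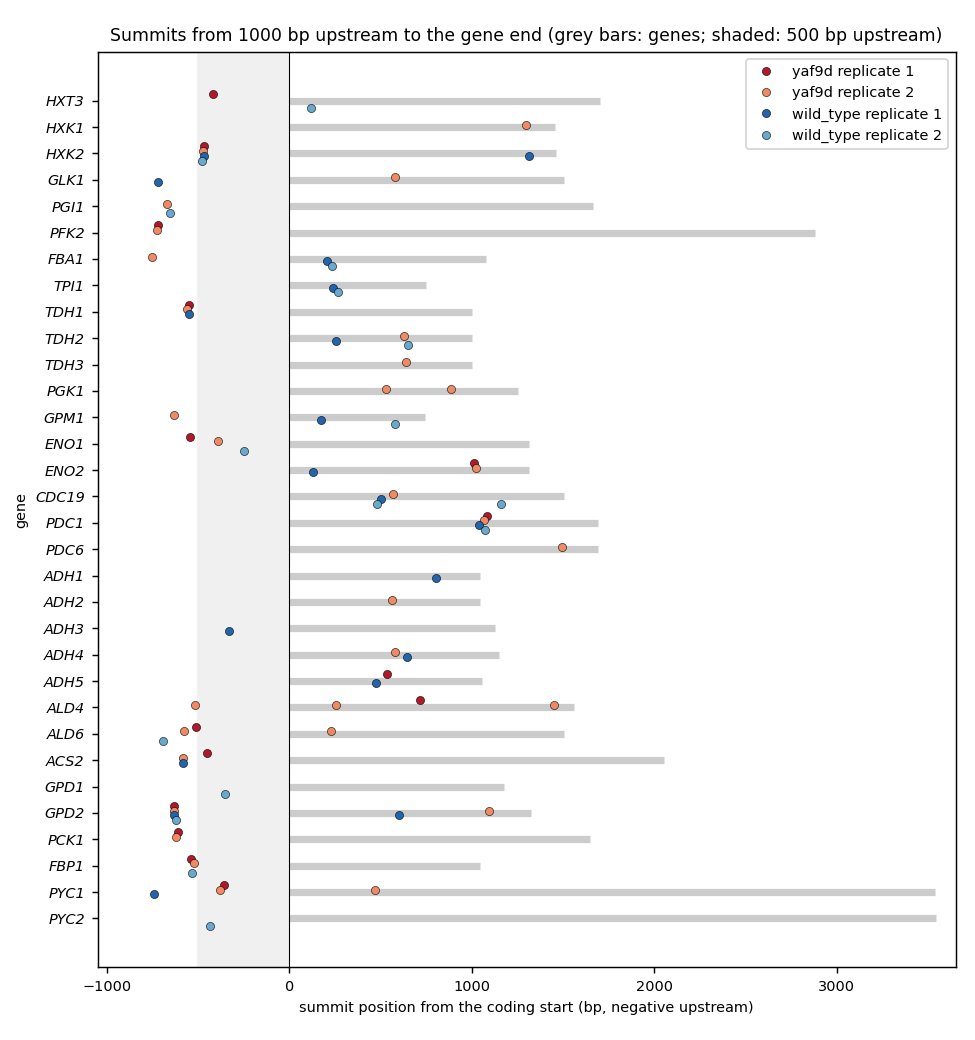
Position of each summit from the coding start (x axis, bp, negative upstream), for listed genes with a summit between 1000 bp upstream and the gene end; points are summits coloured by library, grey bars are the genes and the shaded band is the 500 bp promoter. HXK2, GPD2 and PDC1 have summits from all 4 libraries at nearly the same place, and many upstream summits lie left of the shaded band.

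The gene-body peaks of the listed genes fell into 2 kinds by their background. Of 41 such peaks, 25 stood on a recovered background of 200 or more, a limit chosen after the values were seen, with folds from 1.12 to 1.67. Their backgrounds ran from 251 to 794, apart from an estimate of 979 for 1 peak whose pileup was not recovered within the tolerance (TDH3 in yaf9d replicate 2). They belonged to 11 genes: FBA1, TPI1, TDH2, TDH3, PGK1, GPM1, ENO2, CDC19, PDC1, ADH1 and ALD6. The other 16 peaks stood on backgrounds of 40.9 to 162 with folds of 1.32 to 2.34. They belonged to another 11 genes: HXT3, HXK1, HXK2, GLK1, PDC6, ADH2, ADH4, ADH5, ALD4, GPD2 and PYC1. No gene had peaks of both kinds.

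High backgrounds were less common among all gene-body peaks. They made up 2 of 4 and 8 of 17 peaks of the listed genes in yaf9d, and 8 of 12 and 7 of 8 in wild_type. Among all gene-body peaks the share was 5.07% and 9.13% in yaf9d and 10.3% and 10.4% in wild_type. The median background of the listed genes' gene-body peaks was 284 and 153 in yaf9d and 315 and 401 in wild_type. Over all gene-body peaks it was 55.7 and 83.4 in yaf9d and 72.5 and 70.8 in wild_type. Median folds were lower at the listed genes, with 1.39 and 1.46 in yaf9d and 1.46 and 1.20 in wild_type, against 1.65 and 1.66 in yaf9d and 1.72 and 1.75 in wild_type over all gene-body peaks. Of the 20 gene-body peaks with the highest background in each list, 2 and 6 lay in listed genes in yaf9d and 5 and 7 in wild_type. Listed genes held 1.84% and 2.19% of all gene-body peaks in yaf9d and 1.88% and 1.93% in wild_type.

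PDC1 had the highest background of any nuclear peak in yaf9d replicate 1 and in wild_type replicate 2. Its background was 701 and 691 in yaf9d and 794 and 561 in wild_type, under summit pileups of 796 and 1008 in yaf9d and 951 and 659 in wild_type. The background at TDH3 in yaf9d replicate 2 was estimated at 979, with a pileup of 1103, but no whole-number pileup gave its p-value within 0.001. At ADH1 in wild_type replicate 1 it was 695, with a pileup of 843. At CDC19 it was 533 in yaf9d replicate 2, 596 in wild_type replicate 1, and 462 and 433 at the 2 summits of wild_type replicate 2. ENO2 had 511 and 534 in yaf9d and 553 in wild_type replicate 1. The promoter peaks of the listed genes stood on backgrounds of 27.3 to 75.7, around the list medians. Whether the background reflects a control or the surrounding signal of the same library is not stated in the sources used here, so what a high value measures is unknown. What set the high backgrounds was not tested.

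**Figure D4:**
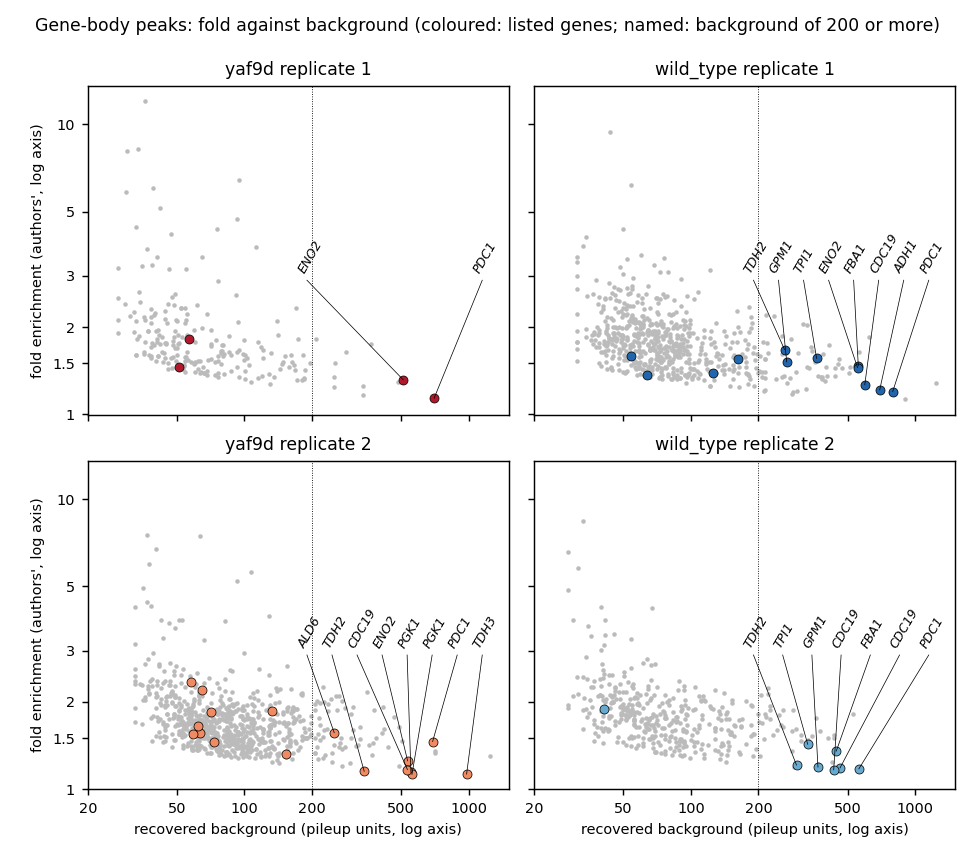
Authors' fold enrichment (y axis, log) against recovered background (x axis, pileup units, log) for all gene-body peaks of each library (grey) and those of the listed genes (coloured, named right of the dotted line at 200). The named genes, which include 8 of glycolysis with PDC1, ADH1 and ALD6, have folds of 1.12 to 1.67, and the unnamed coloured points, among them PDC6, ADH2, ADH4 and ADH5, lie left of the line.

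Some paralogues sat on either side of that limit. Others shared a side, with HXK1, HXK2 and GLK1 below it and TDH2 and TDH3 above it. PDC1 had backgrounds of 561 to 794 and PDC6, in yaf9d replicate 2, had 63.5. ADH1, in wild_type replicate 1, had 695, against 61.9 at ADH2 in yaf9d replicate 2 and 51.1 to 63.6 at ADH4 and ADH5. ALD6 had 251 in yaf9d replicate 2, where ALD4 had 64.6 and 57.5. ENO2 had 511 to 553 inside the gene, and ENO1 had no gene-body peak to set beside it. The promoter peaks of ENO1 had 64.2 in yaf9d replicate 2 and 66.9 in wild_type replicate 2. All 13 promoter peaks of the listed genes had 27.3 to 75.7, so these 2 do not place ENO1 on a side of the limit. These values describe single libraries and were not tested.

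Within the gene, the median summit lay farther along at the listed genes than over all genes in each library. Medians of the listed genes rest on few peaks, 4 and 17 in yaf9d and 12 and 8 in wild_type, and were not tested. The median summit stood at 57.4% and 62.8% of the gene length in yaf9d, and at 39.2% and 49.6% in wild_type. Over all gene-body summits it stood at 50.8% and 54.3% in yaf9d and 28.2% and 39.2% in wild_type. In wild_type replicate 1 the summits of ENO2, FBA1, GPM1, TDH2 and TPI1 lay 128 to 259 bp into the gene. The remaining summits of listed genes in that library lay farther in, at 476 bp (ADH5) to 1312 bp (HXK2). Median peak widths at the listed genes were 485 and 378 bp in yaf9d and 595 and 685 bp in wild_type, against 434 and 414 bp in yaf9d and 462 and 627 bp in wild_type for all gene-body peaks. The listed genes had the wider peaks in 3 libraries, and yaf9d replicate 2 went the other way.

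The median fold of the promoter peaks stood at 59.6% and 34.9% of the list in yaf9d and 28.4% and 29.0% in wild_type, with 0% as the strongest. Over all promoter peaks it stood at 31.9% and 22.1% in yaf9d and 29.7% and 31.3% in wild_type. The means were 47.2 ± 17.5 in yaf9d and 28.7 ± 0.46 in wild_type (SD, n = 2 each), a difference of 18.5 points (exact permutation p = 0.333, two-sided and at its minimum). These medians come from 4 and 3 peaks in yaf9d and 2 and 4 in wild_type, partly at different genes. The yaf9d libraries lay farther apart from each other than the genotype means did.

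Past the end of the gene, 3 summits lay within 500 bp of a listed gene. Genes with such a summit numbered 1 and 0 of 42 in yaf9d and 1 and 1 in wild_type, against 2.47% and 3.75% of all genes in yaf9d and 3.1% and 2.75% in wild_type. At ADH2 both wild_type libraries had one, 199 and 188 bp past the gene, with folds of 3.50 and 2.31, and neither yaf9d library did (0.516% of all genes have this pattern). Those wild_type peaks (chromosome XIII, 872931 to 873587 and 872461 to 873610) overlap the yaf9d replicate 2 peak with its summit inside ADH2 (873466 to 874226). In yaf9d replicate 1 a summit lay 436 bp past the end of GPD2 with a fold of 2.58.

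Other genes of sugar metabolism, 55 in all, gave promoter summits at 5 and 6 genes in yaf9d and 1 and 1 in wild_type. That is 9.09% and 10.9% in yaf9d and 1.82% and 1.82% in wild_type, against the shares of all genes given above. Gene-body summits were present at 1 and 8 of them in yaf9d and 5 and 5 in wild_type. The gene-body shares of 1.82% and 14.5% in yaf9d and 9.09% and 9.09% in wild_type were below those of all genes in replicate 1 of each genotype and above them in replicate 2.

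Among these, 3 genes had a promoter summit in both yaf9d libraries and not in wild_type (1.18% of all genes). REB1, a general regulatory factor that binds many promoters, had folds of 2.57 and 2.46 in yaf9d. STL1, a glycerol importer, had 1.70 and 1.48 in yaf9d. MDH2, the cytosolic malate dehydrogenase of gluconeogenesis, had 4.82 and 3.88 in yaf9d, with summits 363 and 367 bp upstream. In wild_type the summits at MDH2 lay 203 and 159 bp inside the gene instead, with folds of 2.26 and 2.19 in peaks of 1774 and 2478 bp that overlap the yaf9d peaks. PGM1, a phosphoglucomutase, had promoter folds of 3.69 and 3.76 in yaf9d and 3.20 in wild_type replicate 1. ZWF1, the first enzyme of the pentose phosphate pathway, had 3.53 and 2.96 in yaf9d and 1.68 in wild_type replicate 2. GPP1, a glycerol phosphatase, and ALD5, a mitochondrial aldehyde dehydrogenase, had a gene-body summit in both wild_type libraries and not in yaf9d, with folds of 1.20 and 1.38 at GPP1 and 1.29 and 1.30 at ALD5.

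The other hexose transporters and GAL2 had no summit in promoter or gene in the 4 libraries. Of 12 genes for glucose sensing and repression, MIG1, the glucose repressor, had a promoter summit in yaf9d replicate 2 with a fold of 1.66. MTH1, MIG1 and MIG2 had gene-body summits in that library alone. GCR1 and GCR2, the activators of glycolytic genes, had no summit. RAP1, which also binds glycolytic promoters, had one 116 bp into the gene in yaf9d replicate 1 and 132 bp in wild_type replicate 1, with folds of 1.58 and 1.95.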

How the data were processed

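Each deposited file is the peak list of 1 library, made by the authors with BWA 0.7.15-r1140, SAMtools 1.4 and MACS2 (version 2), per the submitters' processing notes. Roles of the tools, genome build, control and threshold were not stated in the sources used here. The deposited ratio is the fold enrichment at the summit, and the deposited probabilities are −log10 p and −log10 q-values. The deposited score was not used. The authors' folds describe peaks within their own list.

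Peaks on the 16 nuclear chromosomes were used, and 39 mitochondrial peaks of yaf9d replicate 2 were left out. Gene names, strands (from systematic names) and coding starts came from a RefSeq table of assembly R64, in which all 42 and 55 names matched, and distances rest on it. As a check of the build, 276 summits fell no more than 300 bp from a tRNA gene's midpoint, and 88.8% of them no more than 100 bp. Pileup and background were recovered by searching the whole-number pileup whose Poisson tail gives the listed p-value, found within 0.001 for 99.0% to 99.9% of peaks per list. The assignment and the recovery were tested on simulated peaks.

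Genotypes were compared by exact two-sided permutation of 4 library values. The same numbers of replicates in both genotypes are not stated to mark pairs. Members, lists and limits were chosen with earlier results of these data known. All 42 genes are accounted for, and those called in 2 or more libraries are given with a fold in each library that called them. Python 3.11.15, pandas 2.3.3 and scipy 1.17.1 were used. The closing section gives the alternatives. Motif searches that were planned need sequences and were not run.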

Additional observations from a re-analysis of the deposited data

How the results depend on the processing

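The difference between yaf9d and wild_type in genes with a promoter summit was 0.5, and it changed sign to -0.5 with a promoter of 300 bp and to -0.5 with peaks of fold 2 or more. It was 3 with an overlap of 1 bp and 5 with a promoter of 1000 bp. Leaving out 1 library at a time gave -0.5 to 1.5. For a promoter or gene-body summit the difference of 0.5 turned to -0.5 with a promoter of 300 bp, -1 at a −log10 q of 5 or more, -2 with the nearest coding start and -1 with lists of equal length (the 616 peaks with the highest −log10 q, chosen after seeing the data). Leaving out 1 library at a time gave -4 to 5. The gene-body difference of 0 ranged from -5.5 to 5.5 when 1 library was left out. The cause of these changes was not tested. The difference in the median rank of fold of promoter peaks kept its sign in the 7 alternatives run for it, from 6.19 to 30.9 points when 1 library was left out and 11.4 to 22.2 with the stricter peak filters or equal lists; other windows, overlap and the pairing were not run for it.

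With a fold of 2 or more, gene-body summits were left at 0 and 1 listed genes in yaf9d and at 0 and 0 in wild_type. With equal lists they stood at 4 and 5 in yaf9d and 9 and 4 in wild_type. The share of all genes was not counted under either setting, so whether the excess over all genes holds there is unknown. Taking libraries of the same replicate number as pairs (replicate block) left the differences at 0.5, 0 and 0.5 (exact sign-flip p = 1). The smallest p that 2 pairs allow in the sign-flip test is 0.5, so it could not show a difference. Libraries of the same number did not deviate together (r = -0.017 over 6002 genes). In each library most genes had no summit, so this value cannot settle whether those libraries shared a batch or culture. The labels do not mark pairs, and the main tests did not use any. The lists give no read totals, so what depth limits is unknown.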
